A study of Mus musculus with 16 samples.

Results

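Flt3, Csf1r, Csf2ra, Csf2rb, Csf2rb2 and Csf3r encode receptor chains through which growth factors act on blood cells, and Csf1 and Il34 encode the ligands of Csf1r. These 8 genes were taken by name from the gene column of mouse arrays that gave 24278 testable genes, with the brightest probe of each gene. All 8 were well above background on enough arrays to be tested, as were all 16 of their probes. RNA came from macrophages that were sorted out of pancreatic tumors or out of normal pancreas by flow cytometry. In FLT3-CRE/LSL-YFP mice a Cre recombinase driven by Flt3 switches on a yellow fluorescent reporter (YFP), so YFP+ cells carry the mark of past Cre activity in themselves or their ancestors, and YFP- cells do not. The 16 samples form 4 groups, with 5 of tumor YFP+, 5 of tumor YFP-, 3 of normal YFP+ and 3 of normal YFP- cells. A number in each title is read here as the mouse, and each of 5 tumor mice and 3 mice with normal pancreas then gave both populations.

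All groups share the C57/B6 background, an age of 8 to 10 weeks and a label of female sex, and the genotype is labelled as not provided. The series' design names wild-type mice, KPC mice (a genetic model of pancreatic cancer) and FLT3-CRE/LSL-YFP mice. The treatment label of every sample, normal pancreas included, speaks of implanted tumors, so the tumor model cannot be told from the labels. A YFP- cell may come from a lineage that never used Flt3 or from one in which the Cre did not act, and the 2 cannot be told apart here. The female label went against most of the Y-linked probes. Among genes looked up for this check, after their values were seen, the Y-linked genes Eif2s3y, Ddx3y and Kdm5d were well above background on 16 of 16 arrays, while of the probes of Uty, also Y-linked, one was so on 10 of 16 and the other on 0. One probe of Xist, the RNA of the inactive X chromosome, was above background on 0 of 16 arrays and another on 14. A widely used Flt3-Cre mouse line carries its transgene on the Y chromosome; the line used is not given in the sources used here.

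Flt3 is the receptor tyrosine kinase of multipotent blood progenitors and dendritic cell precursors, and its ligand Flt3l expands dendritic cells. Csf1r, which binds Csf1 and Il34, is the survival receptor of macrophages. The receptor of GM-CSF (the cytokine Csf2) pairs the ligand-binding chain Csf2ra with the shared beta chain Csf2rb and signals through Jak2 and Stat5, while mice also have Csf2rb2, a second beta chain that serves interleukin 3. Csf3r is the receptor of G-CSF and is best known from neutrophils.

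Values are log2 signals relative to the 75th percentile of each array, so that 0 stands for that percentile. The arrays had 64.9% to 75.4% of their spots well above background and 0 saturated spots, and their 75th percentile lay at 2167 to 3388 intensity units. The 12 macrophage marker genes were above background on every array, with summed levels that overlapped between all 4 groups. Single markers did differ between tissues. Tumor minus normal, Adgre1 differed by -0.94 in YFP+ (limma adjusted p = 0.0287) and by -1.02 in YFP- samples (adjusted p = 0.0156). Lyz2 differed by -0.94 in YFP+ samples (adjusted p = 0.0241) and Cd14 by 1.12 in YFP- samples (adjusted p = 0.0113). No other marker of this list passed between tissues. Both samples of normal mouse 23912 stood apart from those of the other normal mice in Flt3, Csf1r and Kit, and the main tissue differences are therefore also given without that mouse. The choice came from these values, so leaving the mouse out enlarges the tissue differences of these genes by selection. An adjusted p without it is a description and no independent test. Values per sample follow the order of the mouse numbers 23547, 23548, 23550, 23551 and 23677 for tumor and 23912, 23916 and 23917 for normal pancreas.

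Flt3 RNA was present in all 4 groups and did not pass the test between YFP+ and YFP- samples of either tissue. The probe used lies near the end of the transcript (position 3338), and another lies further inside (position 1371). The sequences of both are shown because they read separate stretches of the RNA of the gene whose control elements drive the Cre. They match the Flt3 transcript, on the minus strand of chromosome 5 of build mm9, at chr5:148142576-148142635 and chr5:148178496-148178555, and of the first only the leading 30 of 60 bases are printed.
Flt3 end: agatgctgtctgccattactccaaagtgac
Flt3 inner: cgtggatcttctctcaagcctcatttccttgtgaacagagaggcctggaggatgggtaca

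With the end probe, Flt3 stood at 0.03, -0.03, 0.38, -0.19 and -0.49 in tumor YFP+ samples and at -1.01, 0.01, 0.71, -0.65 and -0.69 in tumor YFP- samples. It stood at 0.02, -1.27 and -1.0 in normal YFP+ samples and at 0.63, -1.56 and -1.54 in normal YFP- samples. The marked and unmarked samples overlapped in both tissues. The difference, YFP+ minus YFP-, was 0.27 ± 0.43 in tumor (SE, 95% interval -0.66 to 1.19, limma adjusted p = 0.914) and 0.07 ± 0.56 in normal pancreas (-1.13 to 1.27, adjusted p = 0.982). Averaged over the tissues it was 0.17 ± 0.35 (-0.59 to 0.92, adjusted p = 0.910). The interval in tumor reaches a difference of 1.19 in favour of YFP+ samples, so a missed threshold does not show equal levels. These intervals do not pair the samples of a mouse and may hold spread between mice. Flt3 was higher in the YFP+ sample in 3 of 5 tumor mice and in 2 of 3 normal mice. Within mice the difference ran from -0.33 to 1.04 in tumor and from -0.62 to 0.54 in normal pancreas.

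The inner probe gave no call either, with differences of 0.19 ± 0.65 in tumor (limma adjusted p = 0.961) and 0.84 ± 0.84 in normal pancreas (adjusted p = 0.850). Its values were -0.47, 0.33, 0.79, -0.03 and -0.48 in tumor YFP+ samples and -1.03, 0.47, 1.17, 0.05 and -1.49 in tumor YFP- samples. The 5 tumor mice thus fell in the same order in both populations with this probe, from mouse 23677 at the low end to mouse 23550 at the high end. In normal pancreas it gave 0.34, -1.05 and -1.29 in YFP+ samples and 0.70, -2.93 and -2.28 in YFP- samples, with mouse 23912 the highest in both. A further probe, assigned to another transcript record, averaged -3.22 in YFP+ and -3.13 in YFP- samples of tumor, and -2.96 in YFP+ and -2.64 in YFP- samples of normal pancreas.

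Between tissues Flt3 did not pass the test, at 0.69 ± 0.50 in YFP+ (tumor minus normal, limma adjusted p = 0.464) and 0.50 ± 0.50 in YFP- samples (adjusted p = 0.522). Without mouse 23912 these differences were 1.08 ± 0.39 (adjusted p = 0.110) and 1.22 ± 0.39 (adjusted p = 0.0524). Within the 3 slides that held both tissues the difference ran from -0.51 to 1.38 in YFP+ and from -1.32 to 1.55 in YFP- samples. The order of the group means, from tumor YFP+ through tumor YFP- and normal YFP+ to normal YFP-, separated no neighbouring pair beyond the spread of the samples.

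**Figure D1:**
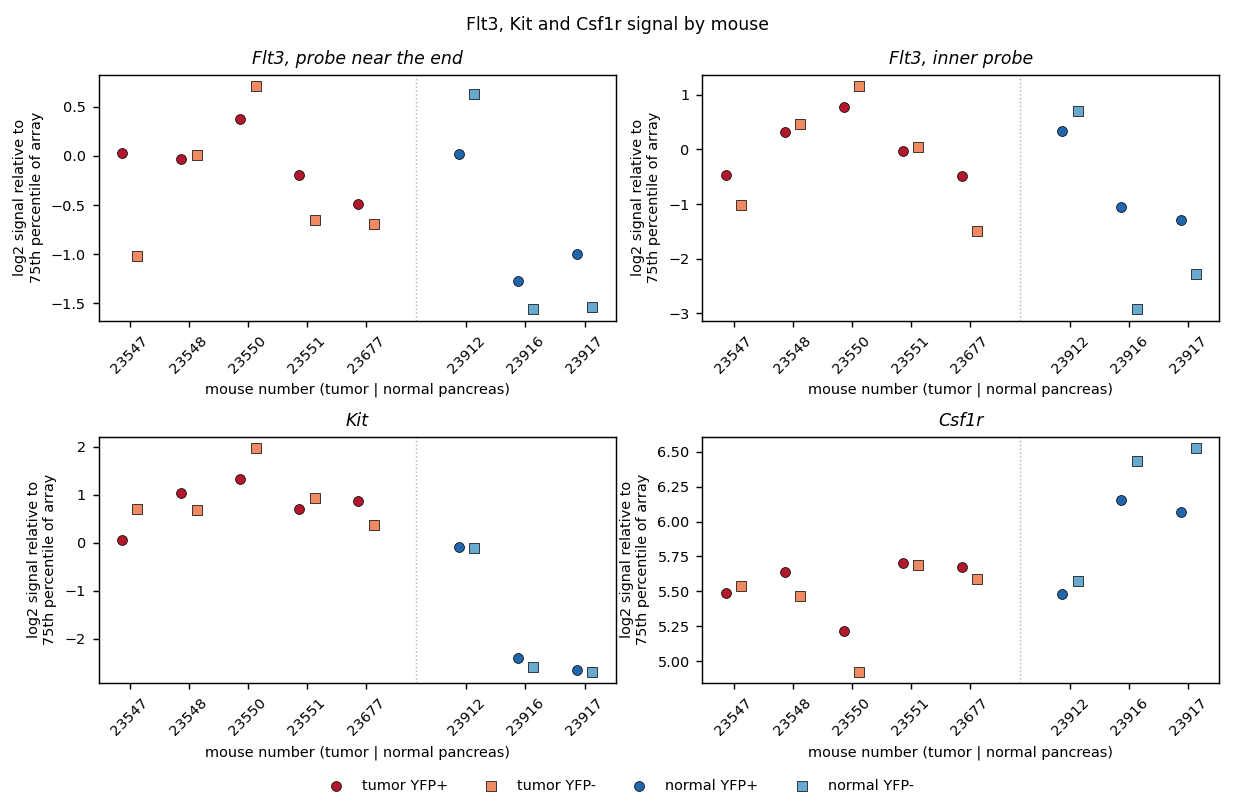
Log2 signal relative to the array's 75th percentile (y axis) for 2 Flt3 probes, Kit and Csf1r in each mouse (x axis), with circles for YFP+ and squares for YFP- samples. Tumor mouse 23550 and normal mouse 23912 have the highest Flt3 and the lowest Csf1r of their tissue in both populations.

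Kit, the receptor of stem cell factor and like Flt3 a marker of early progenitors, but also of mast cells, differed between tissues. Kit stood at 0.06, 1.04, 1.32, 0.70 and 0.87 in tumor YFP+ samples, against -0.09, -2.41 and -2.66 in normal YFP+ samples. In tumor YFP- samples it stood at 0.70, 0.67, 1.97, 0.92 and 0.36, against -0.11, -2.60 and -2.68 in normal YFP- samples. It was higher in tumor by 2.51 ± 0.64 in YFP+ samples (5.72-fold, limma adjusted p = 0.0177) and by 2.72 ± 0.64 in YFP- samples (6.61-fold, adjusted p = 0.00952). Both calls were lost when normal mouse 23916 or 23917 was left out, where the differences lay between 2.04 and 2.32, while without mouse 23912 they were 3.33 and 3.57. Mouse 23912 had the highest Kit among normal mice in both populations, as it had for Flt3. Of the other progenitor markers only Cd48 passed the test in either tissue comparison, with a difference of -0.83 in YFP- samples (limma adjusted p = 0.0243).

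The ligand genes of both receptors, Flt3l and Kitl, were lower in tumor in both populations. Flt3l was at -0.52, -0.67, -0.43, -0.66 and -0.50 in tumor YFP+ samples, against 0.87, 0.37 and 0.17 in normal YFP+ samples. It was at -0.69, -0.82, -0.53, -0.58 and -0.87 in tumor YFP- samples, against 0.47, 0.30 and 0.40 in normal YFP- samples. Tumor and normal samples did not overlap in either population, and Flt3l was lower in tumor by a log2 difference of -1.02 ± 0.16 in YFP+ (limma adjusted p = 0.000769) and -1.09 ± 0.16 in YFP- samples (adjusted p = 0.000403). Kitl, the ligand of Kit, had differences of -2.69 ± 0.39 in YFP+ (adjusted p = 0.000366) and -1.87 ± 0.39 in YFP- samples (adjusted p = 0.00453), again without overlap. Without mouse 23912 the Flt3l differences were -0.82 and -1.05. In sorted bulk samples such as these, fewer cells of a type and less RNA per cell cannot be told apart.

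Csf1r RNA did not pass the test between YFP+ and YFP- samples. It did not pass between tissues as scaled here, but in YFP- samples it was lower in tumor and passed under 6 of 35 alternatives. Some of these leave out samples of mouse 23912. Its probe lies in the gene on chromosome 18, at 61289398 to 61289456 of build mm9 on the plus strand. Csf1r stood at 5.49, 5.64, 5.22, 5.7 and 5.68 in tumor YFP+ samples and at 5.54, 5.47, 4.93, 5.69 and 5.59 in tumor YFP- samples. In normal pancreas it stood at 5.48, 6.16 and 6.07 in YFP+ samples and at 5.57, 6.43 and 6.53 in YFP- samples. The difference between YFP+ and YFP- samples was 0.10 ± 0.22 in tumor (95% interval -0.36 to 0.56, limma adjusted p = 0.936) and -0.28 ± 0.28 in normal pancreas (-0.87 to 0.32, adjusted p = 0.842).

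Tumor minus normal, Csf1r differed by -0.36 ± 0.25 in YFP+ samples (limma adjusted p = 0.446) and by -0.74 ± 0.25 in YFP- samples (adjusted p = 0.0593). The low values of mouse 23912 overlapped the tumor samples in both populations. Without that mouse the YFP- difference was -1.04 ± 0.22 and passed (adjusted p = 0.00578), whereas the YFP+ difference of -0.57 ± 0.22 did not (adjusted p = 0.131). The mouse was set aside for its values of Csf1r among others, so this pass follows in part from that choice. With all mice included, the Csf1r difference in YFP- samples also passed with normexp correction (-0.84, adjusted p = 0.0303), quantile normalization (-0.77, adjusted p = 0.0281), the deposited normalized values (-0.77, adjusted p = 0.0295) and array weights (-0.92, adjusted p = 0.00226). The other Csf1r probes gave -0.39 (adjusted p = 0.196) and -0.33 (adjusted p = 0.334) in YFP- samples, smaller than with the probe used. Across the 16 arrays Csf1r and Flt3 ran in opposite directions, with Pearson's r = -0.87, a description over samples that share mice and slides. Mice 23550 and 23912, at the low end of Csf1r and the high end of Flt3 in their tissues, stand out in the plot by mouse. The same mice had the lowest summed level of the 12 macrophage markers in their tissue, at 251 in YFP+ and 246 in YFP- samples of mouse 23550 and at 287 and 247 in those of mouse 23912. They also had the highest mean log2 of the 13 dendritic cell markers in their tissue. It was 1.51 and 0.78 in mouse 23550 and 0.17 and 0.15 in mouse 23912. By summed level this held in YFP+ samples only (77.8 and 69.5). In YFP- samples tumor mouse 23551 stood at 64.7 against 61.3 in mouse 23550. Normal mouse 23917 stood at 58.0 against 57.2 in mouse 23912. The dendritic cell list was not alone in this. The 9 mast cell and basophil genes were highest in the same mice in both populations, by mean log2 and by summed level. Their sums in YFP+ and YFP- samples were 5.21 and 61.5 in mouse 23550 and 2.58 and 4.97 in mouse 23912. The progenitor and neutrophil means were highest in mouse 23912 in both populations, and in mouse 23550 in YFP- samples only. The part of the cell mix in the Flt3 and Csf1r values was not tested.

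**Figure D2:**
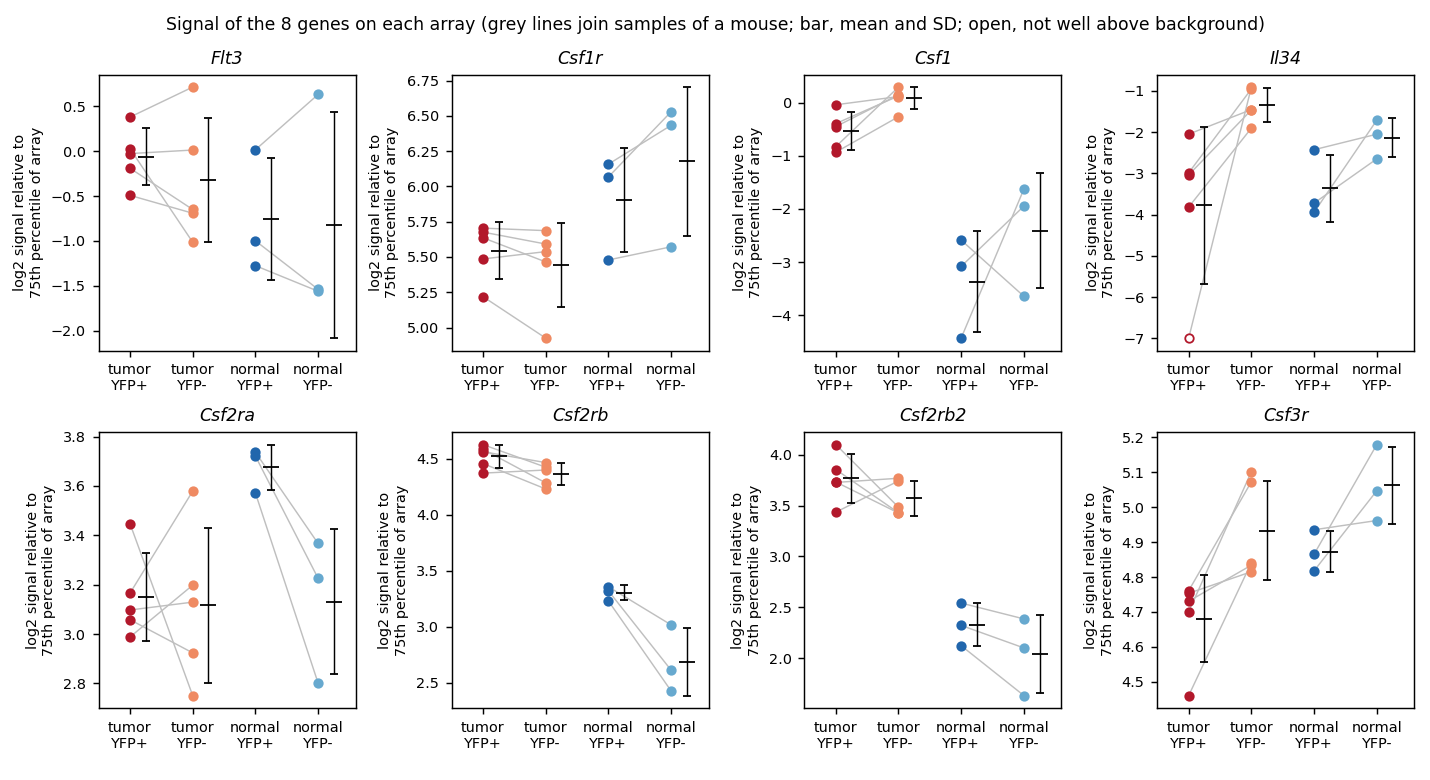
Log2 signal relative to the array's 75th percentile (y axis) of the 8 genes in the YFP+ and YFP- samples of tumor and then those of normal pancreas (x axis), with grey lines joining samples of a mouse, bars for mean and SD and an open point for a probe not well above background. Csf1, Csf2rb and Csf2rb2 separate tumor from normal pancreas in both populations.

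Csf1, the ligand that sustains most tissue macrophages, was higher in tumor than in normal pancreas in both populations. Of the 8 genes 3 passed the test as higher in tumor in YFP+ samples, where 6.03% of all genes did so, and the same 3 (Csf1, Csf2rb and Csf2rb2) passed in YFP- samples, where 8.03% did so. The count of genes that passed as lower was 0 of 8 in both, beside 6.06% and 7.74% of all genes. In either direction 12.1% and 15.8% of all genes passed. The median difference over the 8 genes was 0.25 in YFP+ and 0.65 in YFP- samples, beside -0.04 and -0.16 over all genes. Tumor and normal samples did not overlap for 5 of the 8 genes in YFP+ and for 3 in YFP- samples, against 21.9% and 19.6% of all genes.

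The Csf1 probe reads the minus strand of chromosome 3 at chr3:107544333-107544392 of build mm9. Csf1 stood at -0.45, -0.40, -0.93, -0.83 and -0.04 in tumor YFP+ samples, against -2.59, -3.08 and -4.43 in normal YFP+ samples. It stood at 0.15, 0.12, -0.27, 0.29 and 0.11 in tumor YFP- samples, against -3.64, -1.95 and -1.63 in normal YFP- samples. All tumor samples lay above all normal samples. The differences were 2.83 ± 0.44 in YFP+ (7.13-fold, limma adjusted p = 0.000561) and 2.49 ± 0.44 in YFP- samples (5.61-fold, adjusted p = 0.00134). Within the 3 slides that held both tissues they ran from 2.54 to 3.49 in YFP+ and from 1.75 to 3.75 in YFP- samples. Without mouse 23912 they were 3.22 and 1.87, and both passed.

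A pair of further probes, assigned to another Csf1 transcript, gave the same direction. The first was not well above background on any normal YFP+ array, so that the tumor YFP+ samples (mean -3.10) were at least 3.13-fold brighter than those samples (measured mean -6.10), and in YFP- samples, where it was above background on 1 of 3 normal arrays, its difference was 2.42 ± 0.35 (limma adjusted p = 0.000305). The other was not well above background on any normal array, and the tumor samples were at least 2.22-fold brighter in YFP+ and at least 3.71-fold brighter in YFP- samples. In these bounds the dimmer group is set no lower, on each array, than the lowest signal well above background.

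Between the populations Csf1 was lower in the YFP+ sample of 5 of 5 tumor mice, with differences of -1.12 to -0.15, but the difference of -0.61 ± 0.38 did not pass (limma adjusted p = 0.673). In normal pancreas the difference was -0.96 ± 0.49 (adjusted p = 0.706), with mouse 23912 the reverse of the other mice. Without that mouse, set aside after values were seen, it was -1.97 ± 0.40 and passed (adjusted p = 0.0391), which leaves 2 mice on each side. None of the 8 genes passed the test between YFP+ and YFP- samples in tumor (0 of 8, where 2.39% of all genes passed), in normal pancreas (0 of 8, where 0.0206% passed) or averaged over the tissues (0 of 8, where 2.31% passed). At an unadjusted p under 0.05, 2503, 1854 and 3046 of all genes were counted in these comparisons. The median over the 8 genes was 0.07 in tumor and -0.06 in normal pancreas, beside 0.01 and -0.10 over all genes.

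Il34, the other ligand of Csf1r, had its highest mean in tumor YFP- samples. The probe reads the minus strand of chromosome 8 at chr8:113265835-113265894 of build mm9. Il34 stood at -2.05, -3.82, -6.99, -3.04 and -2.99 in tumor YFP+ samples, where the sample of mouse 23550 was not well above background, against -1.45, -1.90, -0.91, -1.46 and -0.95 in tumor YFP- samples. In normal pancreas it stood at -3.72, -2.43 and -3.94 in YFP+ samples, against -2.65, -2.05 and -1.71 in YFP- samples. The tumor populations did not overlap, and Il34 was lower in the YFP+ sample of 5 of 5 tumor mice and 3 of 3 normal mice. The difference was -2.44 ± 0.69 in tumor (5.43-fold, limma adjusted p = 0.104) and -1.23 ± 0.90 in normal pancreas (adjusted p = 0.807). Leaving out the tumor YFP+ sample below background, that of mouse 23550, gave -1.64 in tumor with an adjusted p of 0.0498, and leaving out that of mouse 23547 gave -2.87 with an adjusted p of 0.0468.

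Il34 and Csf3r were the 2 of 8 genes whose tumor populations did not overlap, against 4.32% of all genes. Between tissues Il34 differed by -0.41 ± 0.80 in YFP+ and 0.80 ± 0.80 in YFP- samples and passed in neither (limma adjusted p = 0.841 and 0.519).

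Fibroblast, epithelial and mast cell markers differed between the tumor populations in the same direction as Il34. Of 8 epithelial genes 6 were lower in tumor YFP+ samples, with summed levels of 2.45 to 5.87 against 14.06 to 27.05 in tumor YFP- samples. Of 9 mast cell and basophil genes 7 were lower. Over all genes 2.39% passed in this comparison, in either direction. Of 10 fibroblast genes, 8 were lower in tumor YFP+ than in tumor YFP- samples and 0 were higher. Their summed level, in multiples of the 75th percentile, lay between 4.21 and 8.43 in tumor YFP+ and between 56.5 and 95.6 in tumor YFP- samples. It lay between 10.8 and 16.98 in normal YFP+ and between 7.0 and 68.3 in normal YFP- samples. Lum was not well above background on any tumor YFP+ array, nor was Pdgfra. Between tissues, 1 fibroblast gene was higher and 1 lower in tumor YFP+ samples, and 4 were higher and 0 lower in tumor YFP- samples. In normal YFP- samples the mice with more Csf1 also had the larger fibroblast sums, with Csf1 at -3.64, -1.95 and -1.63 and sums of 7.0, 37.4 and 68.3. In no other group did the mice fall in the same order for both. The largest sum among normal YFP+ samples, 16.98, was that of mouse 23916, with Csf1 at -3.08 against -2.59 in mouse 23912. Tumor YFP+ samples had more Csf1 than normal YFP+ samples (-0.93 to -0.04 against -4.43 to -2.59) but smaller fibroblast sums. The part of these cells in the Il34 and Csf1 values was not tested.

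**Figure D3:**
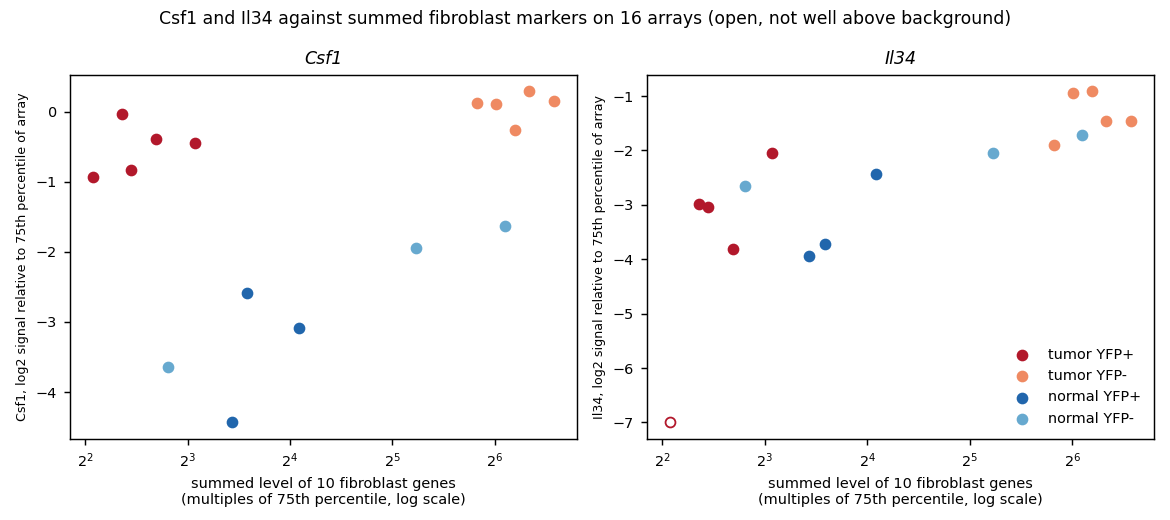
Log2 signal of Csf1 (left) and Il34 (right) relative to the array's 75th percentile against the summed level of 10 fibroblast genes (x axis, log scale), with 1 point per array coloured by group and an open point where the probe was not well above background. Tumor YFP+ samples have summed fibroblast levels of 4.21 to 8.43, and tumor YFP- samples have sums of 56.5 or more with Il34 of -1.90 or more.

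Both beta chains of the GM-CSF receptor family were higher in tumor, in marked and unmarked macrophages alike. The probe used for Csf2rb reads the plus strand of chromosome 15, at chr15:78179504-78179563 of build mm9, and its sequence is shown because the smallest adjusted p among the probes used for the 8 genes rests on it.
Csf2rb used: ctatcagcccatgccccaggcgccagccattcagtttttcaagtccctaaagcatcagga

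Csf2rb stood at 4.37, 4.63, 4.46, 4.57 and 4.59 in tumor YFP+ samples, against 3.36, 3.23 and 3.32 in normal YFP+ samples. It stood at 4.40, 4.43, 4.23, 4.47 and 4.29 in tumor YFP- samples, against 3.02, 2.43 and 2.61 in normal YFP- samples. All tumor samples lay above all normal samples. The differences were 1.22 ± 0.15 in YFP+ (2.33-fold, limma adjusted p = 8.99e-05) and 1.68 ± 0.15 in YFP- samples (3.20-fold, adjusted p = 3.72e-06). Within the 3 slides that held both tissues they ran from 1.14 to 1.40 and from 1.27 to 1.97, and without mouse 23912 they were 1.25 and 1.84. The other Csf2rb probe gave 1.11 ± 0.20 (adjusted p = 0.00146) and 1.48 ± 0.20 (adjusted p = 0.000127).

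Csf2rb2 stood at 3.43, 4.10, 3.85, 3.73 and 3.73 in tumor YFP+ samples, against 2.54, 2.12 and 2.32 in normal YFP+ samples. It stood at 3.74, 3.48, 3.43, 3.77 and 3.43 in tumor YFP- samples, against 2.39, 1.63 and 2.10 in normal YFP- samples. Here too no tumor sample overlapped a normal one. The differences were 1.44 ± 0.20 in YFP+ (2.71-fold, limma adjusted p = 0.000222) and 1.53 ± 0.20 in YFP- samples (2.89-fold, adjusted p = 0.000106). Within slides they ran from 1.19 to 1.98 and from 1.04 to 2.11, and without mouse 23912 they were 1.55 and 1.70. The second Csf2rb2 probe gave 1.61 ± 0.16 and 1.78 ± 0.16 (adjusted p = 1.21e-05 and 3.66e-06).

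The 2 beta chain genes are near neighbours on chromosome 15, with their probes 65.3 kb apart, and are close copies of each other, so a probe of one could bind RNA of the other. The most alike pair of their probes aligned over 31 bases, 28 of them identical, while each of the other pairs shared a run of at most 6. The shared stretch is printed with the bases that differ in capitals. The probes lie at chr15:78181168-78181227 on the plus strand for Csf2rb and at chr15:78113126-78113185 on the minus strand for Csf2rb2, and 30 bases of each are given.
Csf2rb aligned: gcagatcaaAtgtCccttggtctCtgttca
Csf2rb2 aligned: gcagatcaaGtgtTccttggtctAtgttca

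The Csf2rb probe whose values are given above and the second Csf2rb2 probe are outside this stretch, unlike the Csf2rb2 probe used, and both passed the test in both tissue comparisons. Between the populations the beta chains differed less. Csf2rb was 0.16 ± 0.13 higher in tumor YFP+ than in tumor YFP- samples (limma adjusted p = 0.780). In normal pancreas it was 0.62 ± 0.17 higher in YFP+ samples (adjusted p = 0.202), higher in 3 of 3 mice and without overlap between the populations. It passed with array weights (0.80, adjusted p = 0.00196) and without the normal YFP- sample of mouse 23912 (0.78, adjusted p = 0.0262). Csf2rb2 differed by 0.20 ± 0.17 in tumor (adjusted p = 0.798) and by 0.29 ± 0.22 in normal pancreas (adjusted p = 0.811). The interaction, the YFP difference in tumor minus that in normal pancreas, passed for 0 of the 8 genes by limma, where 0.103% of all genes passed and 1450 had an unadjusted p under 0.05. For Csf2rb it was -0.46 ± 0.21 (adjusted p = 0.833).

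Csf2ra, the chain that gives the receptor its specificity for GM-CSF, did not follow the beta chains. Its probe reads the minus strand of chromosome 19 at chr19:61300336-61300395 of build mm9. Csf2ra stood at 3.10, 3.45, 2.99, 3.17 and 3.06 in tumor YFP+ samples, against 3.74, 3.57 and 3.72 in normal YFP+ samples, with no overlap. It stood at 3.13, 2.75, 3.20, 3.58 and 2.92 in tumor YFP- samples, against 3.37, 2.80 and 3.23 in normal YFP- samples. The tissue difference was -0.53 ± 0.20 in YFP+ (limma adjusted p = 0.105) and -0.02 ± 0.20 in YFP- samples (95% interval -0.43 to 0.40, adjusted p = 0.965). With quantile normalization the YFP+ difference was -0.74 and passed (adjusted p = 0.0266), as it did in the deposited normalized values.

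Csf2ra was higher in the YFP+ sample of 3 of 3 normal mice, by 0.54 ± 0.22 (limma adjusted p = 0.543), and differed by 0.04 ± 0.17 in tumor (adjusted p = 0.976). In normal pancreas Csf2ra, Csf2rb and Csf3r were the 3 of 8 genes whose populations did not overlap, against 13.2% of all genes.

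**Figure D4:**
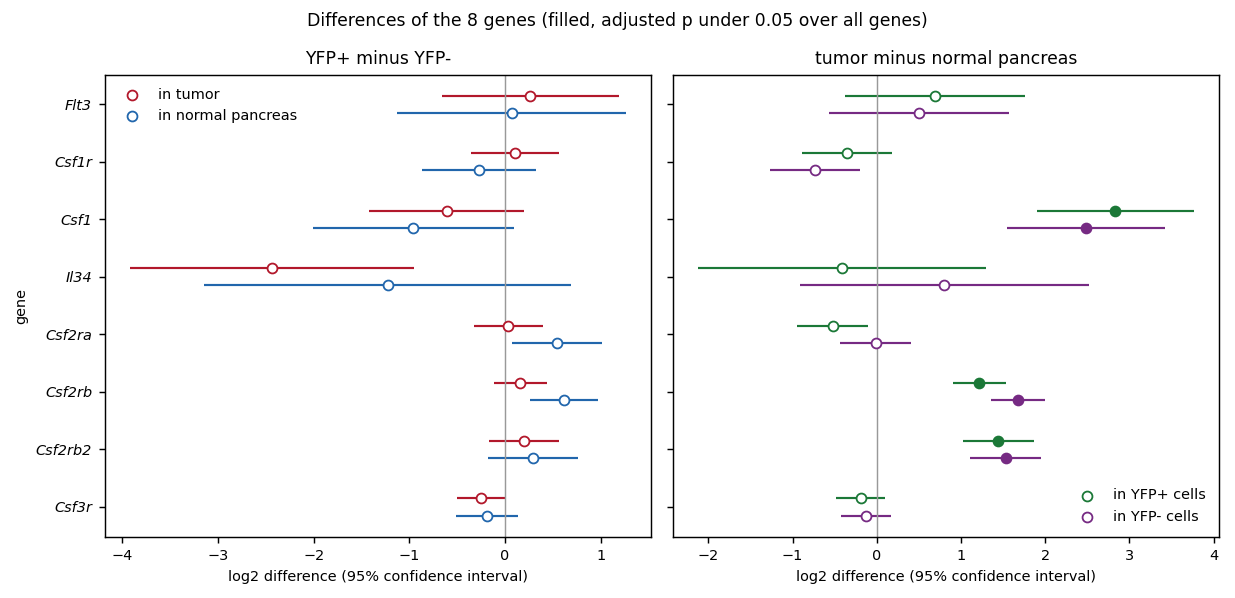
Log2 differences with 95% confidence intervals (x axis) for the 8 genes (y axis), YFP+ minus YFP- in tumor and in normal pancreas (left) and tumor minus normal pancreas in YFP+ and YFP- cells (right), with filled points for adjusted p under 0.05 over all genes. The filled points are those of Csf1, Csf2rb and Csf2rb2 on the right.

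Several genes that GM-CSF and Stat5 are known to induce were higher in tumor. The list was chosen with earlier results of these data known. Of its 16 genes 7 were higher and 0 lower in YFP+ samples, beside 6.03% and 6.06% of all genes. The median difference over the list was 0.65 there, beside -0.04 over all genes. In YFP- samples 7 were higher and 1 lower, beside 8.03% and 7.74% of all genes, with a median of 0.78 beside -0.16. The 4 with the largest differences were the same in both populations. Cish, a Stat5-induced inhibitor of cytokine signaling, was at 1.30, 1.66, 1.78, 1.26 and 1.44 in tumor YFP+ samples, against -0.12, -1.57 and -1.37 in normal YFP+ samples. It was at 1.62, 1.26, 1.95, 1.23 and 0.94 in tumor YFP- samples, against -2.07, -3.28 and -2.85 in normal YFP- samples. Its differences were 2.51 ± 0.34 (limma adjusted p = 0.000204) and 4.14 ± 0.34 (adjusted p = 1.80e-06), and without mouse 23912 they were 2.96 and 4.47.

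Ccl17, a chemokine for T cells, lay between 5.11 and 5.43 in tumor YFP+ samples, against 3.25 to 3.47 in normal YFP+ samples, and between 4.98 and 5.38 in tumor YFP- samples, against 1.31 to 2.98 in normal YFP- samples. It was higher by 1.89 ± 0.27 (limma adjusted p = 0.000348) and 3.14 ± 0.27 (adjusted p = 3.08e-06). Osm, the cytokine oncostatin M, was higher by 3.82 ± 0.53 and 2.96 ± 0.53 (adjusted p = 0.000249 and 0.00153), and 1 of its normal YFP+ samples, that of mouse 23912, was not well above background. Without that mouse the Osm difference in YFP+ samples was 2.88. Dcstamp, which encodes a membrane protein needed for the fusion of macrophages and osteoclasts, was higher by 2.19 ± 0.37 and 3.73 ± 0.37 (adjusted p = 0.00113 and 1.02e-05).

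Irf4 was the 1 gene of the list lower in tumor, with a difference of -0.75 ± 0.24 in YFP- samples (limma adjusted p = 0.0488), a call that was lost under 22 of 35 alternatives. Irf4, which also marks dendritic cells, was the 1 gene of the list that differed between the tumor populations, at 1.43, 1.57, 2.0, 0.93 and 1.63 in tumor YFP+ samples, against 0.15, 0.25, 0.97, 0.18 and 0.14 in tumor YFP- samples (1.18 ± 0.21, adjusted p = 0.00539). Csf2 itself was not well above background on any of the 16 arrays, and Csf3, the ligand of Csf3r, was so on 2 of 16. A response of the cells to GM-CSF was not tested.

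**Figure D5:**
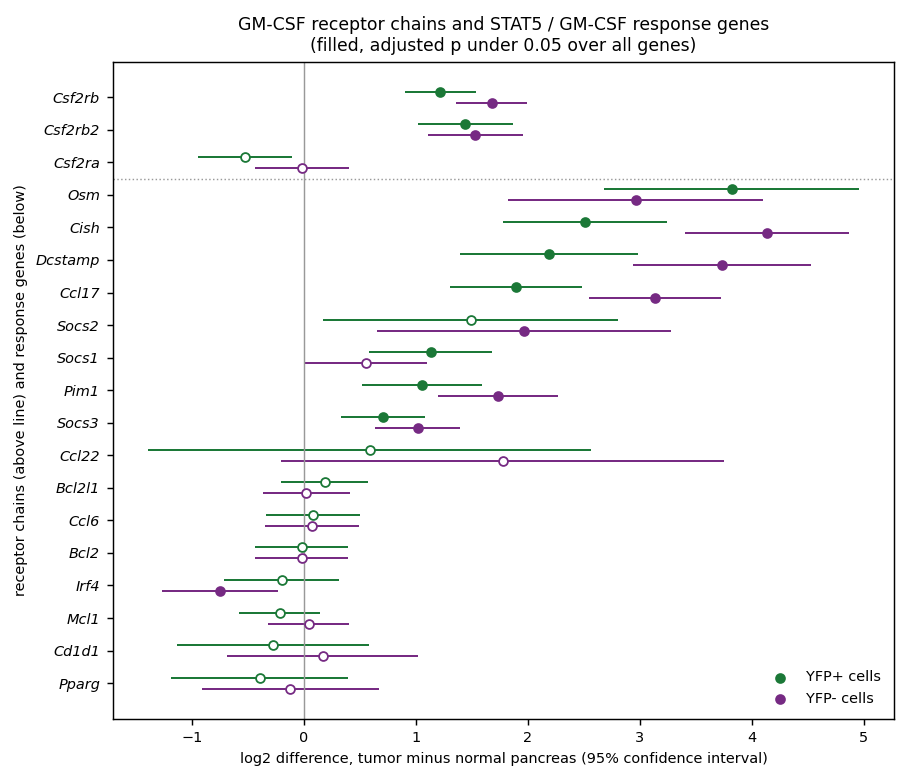
Log2 difference, tumor minus normal pancreas, with 95% confidence intervals (x axis) for the GM-CSF receptor chains (above the line) and 16 response genes (below it), in YFP+ and YFP- cells, with filled points for adjusted p under 0.05 over all genes. Osm, Cish, Dcstamp and Ccl17 have the largest differences, and Csf2ra is open in both populations.

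Markers of other cells were higher in tumor as well, and the beta chains are also known from neutrophils and mast cells. Of 9 neutrophil genes 5 were higher in tumor among YFP+ and 7 among YFP- samples. Their summed level was 8.63 to 20.01 times the 75th percentile in tumor YFP+ against 0.911 to 8.07 in normal YFP+ samples, and 13.97 to 29.4 in tumor YFP- against 0.901 to 1.68 in normal YFP- samples. Of 9 mast cell and basophil genes 1 was higher in tumor among YFP+ and 8 among YFP- samples, with sums of 2.38 to 5.21 against 1.16 to 2.58 and of 15.1 to 61.5 against 1.5 to 4.97. Tpsab1 was not well above background on any normal array, nor was Fcer1a. Of 8 epithelial genes 3 were higher in tumor among YFP+ and 7 among YFP- samples. Over all genes 6.03% were higher in tumor among YFP+ and 8.03% among YFP- samples. Between the tumor populations 7 of the 9 mast cell genes were lower in YFP+ samples, and the difference of Kit was -0.13. The part of these cells in the values of Csf2rb, Csf2rb2 and Kit was not tested.

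Csf3r gave values that cannot be assigned to that gene alone. The file places its probe at chr19:60157892-60157951 of build mm9, while the RefSeq table puts Csf3r on chromosome 4. Of the 16 probes of the 8 genes, it was the only one off its gene's chromosome and the only one that shares a run of 20 bases with probes of other genes. Those bases are in capitals in the stretch shown, were found in probes of 3 other genes among 39429 probes, and have the form of a B1 repeat, a short element present in many copies in the mouse genome.
Csf3r: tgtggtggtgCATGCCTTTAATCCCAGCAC

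The signal stood at 4.73, 4.46, 4.75, 4.76 and 4.70 in tumor YFP+ samples, against 4.83, 4.84, 4.82, 5.07 and 5.10 in tumor YFP- samples. It stood at 4.87, 4.94 and 4.82 in normal YFP+ samples, against 5.18, 4.96 and 5.05 in normal YFP- samples. It was lower in the YFP+ sample of 5 of 5 tumor mice and 3 of 3 normal mice without overlap in either tissue. The differences were -0.25 ± 0.12 in tumor and -0.19 ± 0.15 in normal pancreas and did not pass (limma adjusted p = 0.490 and 0.811). Between tissues it differed by -0.19 ± 0.14 in YFP+ and -0.13 ± 0.14 in YFP- samples (adjusted p = 0.457 and 0.542). With quantile normalization the YFP+ value was -0.52 and passed (adjusted p = 0.0196), so the size of this difference moved with the scaling.

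Ligands, partner chains and signaling genes of these receptors made up a further list of 36 genes, 32 of them tested. In YFP+ samples 5 were higher and 5 lower in tumor, beside 6.03% and 6.06% of all genes. The median was 0.04 there, beside -0.04 over all genes. In YFP- samples 9 were higher and 5 lower, beside 8.03% and 7.74% of all genes, with a median of 0.10 beside -0.16. The kinase gene Jak2, which the GM-CSF receptor uses, was higher in tumor by 0.86 ± 0.23 in YFP+ and 1.2 ± 0.23 in YFP- samples (limma adjusted p = 0.0235 and 0.00258). Stat5b, one of the transcription factors downstream of it, was lower by a log2 difference of -0.75 ± 0.19 and -0.72 ± 0.19 (adjusted p = 0.0166 and 0.0177), and Stat5a differed by -0.66 ± 0.23 and -0.22 ± 0.23 without passing (adjusted p = 0.0837 and 0.550). The adaptor gene Sh2b3, an inhibitor of Jak2 and Kit signaling, was lower with differences of -0.85 ± 0.21 and -1.02 ± 0.21 (adjusted p = 0.0149 and 0.00402). The Jak2 call in YFP+ samples was lost under 7 of 35 alternatives.

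Il3ra, the ligand-binding chain of the interleukin 3 receptor that pairs with the same beta chains, was lower in tumor with differences of -0.67 ± 0.19 in YFP+ and -0.62 ± 0.19 in YFP- samples (limma adjusted p = 0.0310 and 0.0387), calls lost under 15 and 13 of 35 alternatives. Il5ra, the corresponding chain of the interleukin 5 receptor, was higher by 1.41 ± 0.25 in tumor YFP- than in normal YFP- samples (adjusted p = 0.00159) and differed by 0.24 ± 0.25 in YFP+ samples (adjusted p = 0.658). It was the 1 gene of the list that passed between the tumor populations, lower in YFP+ samples at -0.94, -1.23, -1.18, -0.94 and -1.57, against 0.45, 0.32, -0.21, -0.52 and 0.04 in YFP- samples (-1.19 ± 0.22, adjusted p = 0.00754). Il3 was well above background on 1 YFP+ and 1 YFP- array of tumor and on 0 YFP+ and 1 YFP- array of normal pancreas, and Il5 on 0 of 16. Among the ligand-binding chains, then, Csf2ra did not pass, Il3ra was lower in both populations and Il5ra was higher in 1 of them.

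Transcription factors that control these receptor genes were split. Runx1, a regulator of Csf1r and of GM-CSF, was higher in tumor by 1.09 ± 0.22 in YFP+ and 0.98 ± 0.22 in YFP- samples (limma adjusted p = 0.00445 and 0.00762), but its second brightest probe gave 0.28 and 0.41 and did not pass. Cebpb, a factor of inflammatory macrophages, was higher by 1.15 ± 0.24 and 1.82 ± 0.24 (adjusted p = 0.00586 and 0.000147). Spi1, which encodes PU.1 and drives Csf1r, differed by 0.16 ± 0.16 and 0.14 ± 0.16, and Irf8 by 0.43 ± 0.21 and 0.31 ± 0.21, without passing (adjusted p of 0.241 or more). The signaling adaptor Tyrobp differed by 0.03 ± 0.15 and -0.0001 ± 0.15. In YFP- samples Stat3 (0.72 ± 0.15), Shc1 (0.61 ± 0.18) and Pik3r1 (0.96 ± 0.24), which act downstream of the receptors, were higher in tumor (adjusted p = 0.00345, 0.0320 and 0.0143). They did not pass in YFP+ samples, at 0.41, 0.22 and 0.66, and the Shc1 and Pik3r1 calls were lost under 12 and 5 of 35 alternatives. The interaction passed for 0 of the 32 genes.

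Sdc1, a heparan sulfate proteoglycan that in other cells binds growth factors, was higher in tumor by 1.75 ± 0.29 in YFP+ and 2.81 ± 0.29 in YFP- samples (limma adjusted p = 0.000946 and 1.43e-05). It was at 0.29, 0.56, 0.49, 0.21 and 1.08 in tumor YFP+ samples and at 0.29, 0.51, -0.29, 0.22 and -0.56 in tumor YFP- samples. It was at -1.60, -1.13 and -0.94 in normal YFP+ samples and at -2.64, -3.30 and -2.39 in normal YFP- samples. Averaged over the tissues it was 1.02 ± 0.20 higher in YFP+ samples (adjusted p = 0.0181). It was the 1 gene of this list that passed the averaged comparison, and it also marks plasma cells, whose part was not tested.

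The upstream windows of 2 of the genes that were higher in tumor are shown because these genes moved together in the tissue comparison. RefSeq's table (GRCm38.p6) holds a window for 5 of the 8 genes, and those of Csf1, on the minus strand of chromosome 3, and Csf2rb2, on the minus strand of chromosome 15, are given as the 250 bases before the start. Capitals mark matches to 3 of 4 motifs searched on both strands. GGGA followed by any 3 bases and TCC is a form of the kappa B site, TTCNNNGAA the form of the STAT site, GAGGAA the core bound by PU.1 and TGANTCA the form of the AP-1 site.
Csf1 upstream: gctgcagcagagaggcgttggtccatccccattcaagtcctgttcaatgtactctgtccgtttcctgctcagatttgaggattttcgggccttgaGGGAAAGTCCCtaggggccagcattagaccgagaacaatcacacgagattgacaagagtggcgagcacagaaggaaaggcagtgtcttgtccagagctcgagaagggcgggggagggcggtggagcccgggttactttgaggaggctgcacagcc
Csf2rb2 upstream: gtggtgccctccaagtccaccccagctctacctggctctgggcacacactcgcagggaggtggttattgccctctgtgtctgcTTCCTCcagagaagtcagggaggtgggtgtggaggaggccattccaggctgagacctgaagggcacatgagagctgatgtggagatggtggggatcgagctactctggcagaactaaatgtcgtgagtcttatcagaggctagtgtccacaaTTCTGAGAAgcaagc

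The Csf1 window held 2 overlapping matches of the kappa B form, the nearer 154 bases before the start, and none of the other motifs. The Csf2rb2 window held 1 match of the STAT form, 15 bases before the start, and 1 of the PU.1 core, 167 bases before it and on the opposite strand. Among 32851 such windows of the table, 3.86% held the kappa B form, 7.02% the STAT form, 23.25% the PU.1 core and 6.75% the AP-1 form. A match describes the letters and says nothing of a factor bound there.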

How the data were processed

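One-colour Agilent 4x44K arrays were hybridised with amplified RNA of 16 sorted samples. The deposited intensity values were made with Agilent Feature Extraction 11.5.1.1, per the submitters' processing notes. Per the file headers and columns, each intensity is background-subtracted and detrended, with a surrogate value for dim spots (14.6% to 24.1% of spots), and is not normalized between arrays. A table of log2 values that the authors deposited holds the same arrays, with a normalization not given in the sources used here. Its sorted columns are equal within 0.0069, as quantile normalization leaves them, and it served as an alternative. From the intensities, spots of a probe were averaged after control and outlier spots were left out, and log2 of each probe was taken minus the array's 75th percentile. Probes well above background on 3 or more of 16 arrays were kept, the brightest probe stood for a gene, and probe coordinates are those of the file (mm9).

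limma 3.58.1 in R 4.3.3 fitted the 4 groups over 24278 genes, with Benjamini-Hochberg adjustment over all of them and a threshold of 0.05. Values after ± are standard errors, and 95% intervals come from the same fit. The number of arrays limits the precision. Nothing says how the cells of a group were pooled, so the p-values measure the spread between these samples. On simulated data with 24278 genes for the YFP comparison in tumor, 34% of genes changed by 1 on the log2 scale were recovered. Of those changed by 2, 75% were recovered, and 5.22% of the calls were false. The simulated noise was independent between genes and arrays, without effects of mouse or slide, so these rates may not hold for the real samples.

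The text names all 8 genes, called partner genes with 9 fixed ones, and some called genes of the other lists, mostly those with the largest differences, plus markers below background. The genes and lists were chosen with earlier results of these data known. Normexp correction, quantile normalization, other filters and probe choices, array weights, slide and mouse as blocks and leaving out samples were tried as alternatives.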

Additional observations from a re-analysis of the deposited data

Results flagged for a closer look

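Among 70 sets of 5 tumor samples of named genes, 4 held a sample set apart from the rest of its group by more than Dixon's critical value, and chance alone would mark about 1 in 20. Csf3r was 4.46 in the tumor YFP+ sample of mouse 23548, below the others of its group. Il3 was -3.47 in the tumor YFP- sample of mouse 23677, the 1 sample of that group well above background. Socs3 was 4.16 in the tumor YFP+ sample of mouse 23547. Irf4 was 0.97 in the tumor YFP- sample of mouse 23550, the highest of its group.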

How the results depend on the processing

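The tissue calls of Csf1, Csf2rb and Csf2rb2 held under all 35 alternatives in both populations. The count of the 8 genes called was unchanged with the mouse number as a replicate block (0 in tumor, 0 in normal pancreas, 0 averaged and 0 for the interaction, 3 in each tissue comparison) and with the slide as a block. Over all genes, samples of a mouse did not deviate together in every mouse (r from -0.290 to 0.314), so the numbers were not treated as pairs. That check over all genes does not show that pairing is absent for a single gene. The standard errors and intervals given for the YFP differences leave out the mouse, and so may hold spread between mice. For Flt3 and Csf1r, mice 23550 and 23912 were nonetheless at an extreme of their tissue in both populations. Averaged over the tissues the YFP count was 0 but became 1 with normexp correction (Csf2rb, 0.42), 2 with the second brightest probe (Csf1 and Csf2rb2) and 2 with array weights. Array weights also gave 3 in normal pancreas (Csf1, Csf2ra and Csf2rb) and 5 in the tissue comparison of YFP- samples, which adds Csf1r and Flt3, and 4 in YFP+ samples, which adds Csf2ra. Quantile normalization and the deposited values each gave 5 in YFP+ samples, which adds Csf2ra and Csf3r, and 4 in YFP- samples, as did normexp correction, which adds Csf1r. Leaving out a sample or mouse gave 0 to 1 calls in tumor, 0 to 1 in normal pancreas, 0 to 2 averaged, 3 to 3 in YFP+ and 3 to 4 in YFP- tissue comparisons, and 0 to 0 for the interaction. Over all genes, alternatives gave 357 to 805 calls in tumor (580 as reported), 0 to 1165 in normal pancreas (5) and 181 to 1501 averaged (560), 1901 to 4467 (2936) and 2225 to 9225 (3829) between tissues, and 5 to 358 (25) for the interaction. The epithelial gene Cldn4 was 1.64 in the YFP- tissue comparison and -0.17 with its second brightest probe. The cause of these changes was not tested. Normexp correction moved the median of all genes in that comparison to 0.06, against -0.16.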

Other observations

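The 13 dendritic cell markers had median differences, YFP+ minus YFP-, of 0.79 in tumor, 0.97 in normal pancreas and 0.72 averaged over the tissues, beside 0.01, -0.10 and -0.04 over all genes. Of these genes 1 passed as higher in tumor YFP+ than in tumor YFP- samples, where 2.39% of all genes passed in either direction. Averaged over the tissues 3 were higher in YFP+ samples, where 2.31% of all genes passed in either direction. They were Irf4 (0.90), Batf3 (0.72) and Naaa (0.89), and the Batf3 and Naaa calls were lost under 20 and 21 of 34 alternatives. In each tissue comparison 3 were higher and 2 lower in tumor. Over all genes 6.03% were higher and 6.06% lower in YFP+ samples, and 8.03% and 7.74% in YFP- samples. Between tissues Itgae, an integrin chain of migratory dendritic cells and resident T cells, was 5.60 higher in tumor YFP+ and 4.37 higher in tumor YFP- samples, while Batf3 was lower in both. Clec9a, a receptor for dead cells on cross-presenting dendritic cells, was 2.95 higher in tumor YFP+ samples and at least 4.51-fold higher in tumor YFP- samples, as it was not well above background on any normal YFP- array. In YFP+ samples Ccr9 was higher in tumor by 3.21 (limma adjusted p = 0.00642) and Cd209a differed by -2.28 (adjusted p = 0.0259).

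Without normal mouse 23912, set aside after values were seen, Ccl17, Cish and Dcstamp passed between the populations of normal pancreas, with 2 mice on each side. The share of all genes that passed in this setting is not given here. Over the alternatives, calls in this comparison ran from 0 to 1165 over all genes. Those as higher in YFP+ samples ran from 0 to 5 of the 16 response genes. The passes are therefore not read as particular to GM-CSF response genes. Ccl17 was 1.83 higher in YFP+ samples (limma adjusted p = 0.00446), Cish 1.60 (adjusted p = 0.0354) and Dcstamp 2.20 (adjusted p = 0.0171). With all mice these differences were 1.36, 1.71 and 1.63 and did not pass.

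Over the 16 arrays of 8 mice, which share slides and groups, the genes whose values ran most like those of each receptor or ligand are given as a description. Csf2rb ran most like Mmp12, a macrophage elastase (r = 0.99), Csf2rb2 like Csf2rb (0.98), and Csf1 like Camk2n1 (0.98). Csf1r ran most like Siglec1, a macrophage sialic acid receptor (0.93), and Il34 like Wt1, a factor of mesothelial cells (0.91). After the group means were taken out, Flt3 ran most like an unnamed transcript, Dcun1d1 and the cyclin gene Ccnb1 (0.93 each), and Csf1r like Grn (0.97) and the complement gene C1qb (0.95).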
